A study of Oryctolagus cuniculus with 39 samples.

Results

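Whole interscapular fat of New Zealand White rabbits was compared between 3 and 6 weeks of age, using the 3 libraries labelled total iBAT at each age. These are 6 of the 39 samples of the series, and all genes with a level of at least 1 FPKM in at least 3 of the 6 libraries were taken, which left 12360 of the 20183 genes in the table. FPKM counts fragments scaled for transcript length and for library size, so it is a level per length. The series follows the same depot from 1 day to 12 weeks of age, with the stromal vascular fraction (SVF) of the interscapular and subscapular depots measured beside the whole tissue. No genotype, sex or treatment is given for either group, so the groups differ by age alone as far as the labels go. The labels do not say whether the 3 libraries of an age came from separate animals. The p-values therefore measure a spread between libraries of an age, pooled over all ages of the series, which may in part be technical. In whole tissue, fewer cells of a type and less RNA per cell cannot be told apart.

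Brown fat burns fatty acids in densely packed mitochondria and releases the energy as heat through uncoupling protein 1 (UCP1), which lets protons back across the inner mitochondrial membrane without making ATP. Noradrenaline acting on beta-adrenergic receptors drives this through cyclic AMP. White fat stores triglyceride, makes fatty acids from glucose and acetate when food is plentiful, and secretes hormones such as leptin and adiponectin. In some mammals, rabbits among them, the brown fat that protects the newborn takes on the look of white fat as the animal grows.

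Values below are given in the order of replicates 1, 2 and 3. Differences between ages are log2 fold changes, 6 minus 3 weeks, on the log2(FPKM + 1) scale, which understates the change of genes with low levels. A gene is said to have risen or fallen only where its adjusted p was under 0.05 in the same direction both with all libraries and without 3 weeks replicate 3. Of the other genes, values are given.

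That library was left out in turn because it held skeletal muscle transcripts. The 6 skeletal muscle markers in the table (of 9 sought) summed to 4553 FPKM in 3 weeks replicate 3, against 3.64 and 5.23 FPKM in 3 weeks replicates 1 and 2 and 124, 12.5 and 9.83 FPKM at 6 weeks. ACTA1, the actin of skeletal muscle, was at 0.56, 2.54 and 2163 FPKM at 3 weeks and at 60.0, 4.54 and 0.70 FPKM at 6 weeks. The muscle transcripts therefore lay in 1 of the 3-week libraries and, at a far lower level, in 6 weeks replicate 1. A list of 16 tested muscle genes had a median log2 fold change of -1.37 with all libraries and 0.78 without 3 weeks replicate 3.

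**Figure D1:**
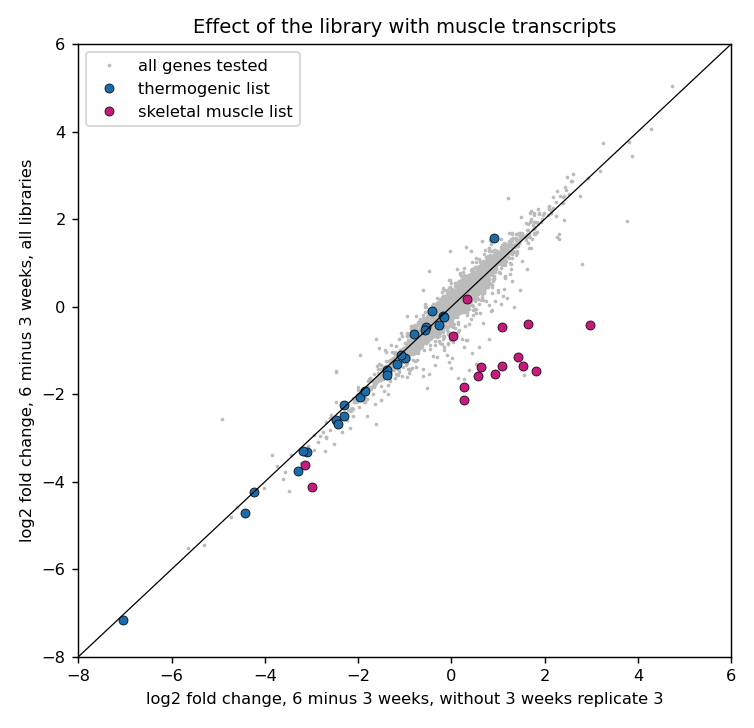
Log2 fold change (6 minus 3 weeks) of each of the 12360 genes without 3 weeks replicate 3 (x axis) and with all libraries (y axis), with the diagonal drawn. Thermogenic genes lie near the diagonal, while most of the 16 skeletal muscle genes lie well below it, as their medians of 0.78 and -1.37 reflect.

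A second library held traces of lymphoid tissue. In 3 weeks replicate 2 the 4 T cell markers summed to 23.0 FPKM against 1.02 to 2.53 FPKM in the other 5 libraries, and 3 B cell markers summed to 7.84 FPKM against 0.23 to 0.51 FPKM. The adipocyte markers, 6 of 8 in the table, summed to between 22749 and 26747 FPKM at 3 weeks and between 25589 and 37766 FPKM at 6 weeks, so all 6 libraries were rich in fat cell transcripts and the ages overlapped. Of the 6 brown adipocyte markers, UCP1, DIO2, PPARGC1A and COX7A1 were present at 3 weeks and fell, CIDEA stayed high, and ELOVL3 was at or under 0.05 FPKM in every library. The label of brown fat thus matched 5 of its 6 markers at 3 weeks and fewer at 6 weeks. Summed FPKM ranged from 453644 to 474906 per library, and 16880 to 17634 genes had a level above 0. Correlations across genes on the log2 scale ranged from 0.946 to 0.975 between libraries of 1 age and from 0.90 to 0.947 between ages; 3 weeks replicate 2 correlated with 3 weeks replicate 3 at 0.947, no closer than with 6 weeks replicates 1 and 2. Genes are not independent replicates, so these values are descriptions.

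With all libraries, 1409 genes differed between the ages (11.4% of those tested), 530 of them higher (4.29%) and 879 lower (7.11%) at 6 weeks. Without 3 weeks replicate 3 the count was 718 (5.81%), with 202 higher (1.63%) and 516 lower (4.17%). Both fits called 701 genes in the same direction (5.67%), of which 193 rose (1.56%) and 508 fell (4.11%). The 3 values of each age did not overlap in 3741 genes (30.3%), among them all 508 genes that fell and 191 of the 193 that rose. A log2 change of at least 2 was found in 70 of the genes that fell and 30 of those that rose. The excess of falls depended on how libraries were scaled: after upper quartile scaling, 812 of 1528 called genes were higher (53.1%), against 37.6% as deposited. Without 3 weeks replicate 3 the same scaling gave 329 higher and 429 lower genes. The median log2 fold change over all genes was -0.01 as deposited and 0.06 after that scaling. Single libraries weighed on the count too: leaving out 3 weeks replicate 1 gave 899 genes, and leaving out 6 weeks replicate 2 gave 811. With 3 weeks replicate 3 already left out, dropping a further library gave 205 genes for 3 weeks replicate 1, 415 for 3 weeks replicate 2 and 424 for 6 weeks replicate 2.

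The largest fall was that of UCP1 (gene 100328618). Its level was 870.2, 671 and 942 FPKM at 3 weeks and 22.4, 2.08 and 1.69 FPKM at 6 weeks. Every 3-week library was far above every 6-week library, and the residual level at 6 weeks lay mainly in replicate 1. The log2 fold change was -7.15 ± 0.7 (SE), with an adjusted p of 8.86e-05, and -7.05 without 3 weeks replicate 3 (adjusted p = 0.000656). For context, the mean was 5348 FPKM on day 1 and 2.94 FPKM at 12 weeks, so the gene was already below its newborn level at 3 weeks and near its final level at 6 weeks.

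The enzymes and channels that serve thermogenesis fell with it. Of 33 genes listed, 25 were tested. Of these 17 fell and none rose, against 4.11% and 1.56% of all tested genes. The median log2 fold change was -1.56 (-1.39 without 3 weeks replicate 3), against -0.01 over all genes. COX7A1, a subunit of cytochrome oxidase found in heart, muscle and brown fat, was at 238, 193 and 340 FPKM at 3 weeks and at 27.4, 17.5 and 29.1 FPKM at 6 weeks, a log2 change of -3.32 ± 0.25 (SE) with an adjusted p of 1.77e-05. CPT1B, the gatekeeper of fatty acid entry into mitochondria in muscle and brown fat, was at 104, 102 and 154 FPKM and then at 22.5, 15.2 and 23.7 FPKM, a change of -2.49. In neither gene did the ages overlap. DIO2, which turns thyroxine into the active thyroid hormone inside the cell, was at 14.2, 7.6 and 13.4 FPKM at 3 weeks and at 0.23, 0.19 and 0.36 FPKM at 6 weeks (log2 fold change -3.29, adjusted p = 1.08e-05).

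Receptors and coactivators of the adrenergic pathway were low in level but moved the same way. ADRB3, the beta-adrenergic receptor typical of fat cells, was at 7.39, 7.84 and 6.67 FPKM at 3 weeks and at 1.25, 0.5 and 0.58 FPKM at 6 weeks, a log2 change of -2.25 ± 0.2 (SE) with an adjusted p of 4.87e-05. ADRB1 fell from 4.19, 5.52 and 7.53 FPKM to 1.63, 1.96 and 2.11 FPKM. PPARGC1A, the coactivator that drives mitochondrial biogenesis, went from 3.11, 3.13 and 4.87 FPKM to 0.78, 0.96 and 1.51 FPKM, a log2 fold change of -1.17 (adjusted p = 0.00267). These 3 genes were low at both ages, but each 6-week library was below each 3-week library.

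Not every brown fat gene fell. CIDEA, a lipid droplet protein used as a brown fat marker, was at 977, 2301 and 1594 FPKM at 3 weeks and at 1278, 1294 and 1390.4 FPKM at 6 weeks, a log2 change of -0.21 ± 0.29 (SE) with an adjusted p of 0.703. The 3-week libraries spanned all 6-week values. ELOVL6, a fatty acid elongase, and PRDM16, a regulator of brown fat identity, had log2 fold changes of -0.41 and -0.47 with adjusted p of 0.428 and 0.123. S100B, a calcium-binding protein of brown adipocytes and Schwann cells, had a positive log2 fold change of 1.56 (adjusted p = 0.063), and its lowest value, 11.1 FPKM, was in 3 weeks replicate 3. In that library the Schwann cell markers also had their lowest sum, 70.5 FPKM against 136 to 717 FPKM in the others; their part in the S100B value was not tested. EBF2, an early brown adipocyte transcription factor, fell from 34.1, 29.5 and 34.0 FPKM to 15.5, 15.6 and 12.5 FPKM (log2 fold change -1.11, adjusted p = 0.00069).

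Genes other than those named so far were also among the largest falls. PPP1R1B (gene 100355399), a cyclic AMP-regulated inhibitor of protein phosphatase, was at 93.5, 59.3 and 103 FPKM at 3 weeks and at 2.18, 0.37 and 0.62 FPKM at 6 weeks, a log2 change of -5.45 ± 0.29 (SE) with an adjusted p of 4.21e-06. ALOX15 (gene 100009114), a lipoxygenase that oxidises polyunsaturated fatty acids, was at 32.4, 32.9 and 39.7 FPKM and then at 0.77, 0.16 and 0.02 FPKM. KCNK3 (gene 100009467), a background potassium channel, was at 70.6, 29.8 and 85.6 FPKM and then at 2.46, 0.26 and 1.42 FPKM. All 3 genes were near absent at 6 weeks. GMPR (gene 100342587), which converts guanosine to inosine monophosphate, fell by 4.23 on the log2 scale, and BHMT2 (gene 103346483), a methyltransferase that makes methionine, by 4.14. PHKG1 (gene 100009297), a catalytic subunit of phosphorylase kinase in glycogen breakdown, fell by 3.93 with all libraries. That value includes the 3-week library with muscle transcripts. GPD2 (gene 100101571), the mitochondrial glycerophosphate dehydrogenase that feeds cytosolic electrons to the respiratory chain, was at 287, 177 and 352 FPKM at 3 weeks and at 17.0, 17.9 and 19.95 FPKM at 6 weeks, and fell by 3.77.

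Some of the largest falls involved genes that muscle also expresses, FABP3 and MB among them. FABP3 (gene 100348000), the fatty acid carrier of heart and brown fat, was at 88.5, 82.8 and 231 FPKM at 3 weeks and at 16.7, 6.16 and 4.47 FPKM at 6 weeks. MB (gene 100351487), myoglobin, was at 24.8, 14.0 and 204 FPKM and then at 6.37, 0.63 and 0.26 FPKM. The highest value of both genes at 3 weeks was in the library with muscle transcripts and the highest at 6 weeks in replicate 1. Without 3 weeks replicate 3 the log2 fold changes were -3.29 for FABP3 (adjusted p = 0.000774) and -2.99 for MB (adjusted p = 0.0127), against -3.76 and -4.12 with it, and the remaining 3-week values still lay above all 6-week values. CKMT2, the mitochondrial creatine kinase of muscle and brown fat, fell as well, by 3.14 on the log2 scale without that library (adjusted p = 0.000191).

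**Figure D2:**
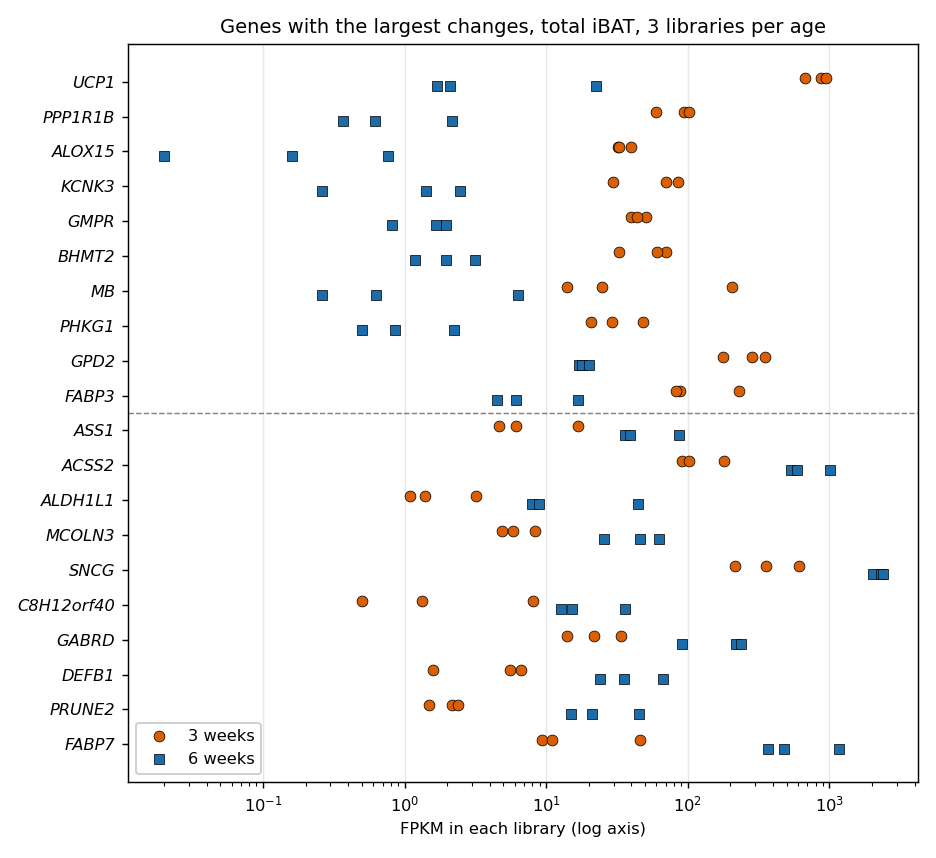
FPKM on a log axis of the 10 genes with the largest falls (above the dashed line) and the 10 with the largest rises (below it) in each of the 3 libraries per age (circles, 3 weeks; squares, 6 weeks). UCP1 is between 671 and 942 FPKM at 3 weeks and between 1.69 and 22.4 FPKM at 6 weeks; genes were chosen to have no overlap between the ages.

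The respiratory chain, which passes electrons from fuel to oxygen, fell broadly but by less than UCP1. Over all tested genes 4.11% fell and 1.56% rose. Of 34 tested subunits of complex I, the entry point for electrons from NADH, 21 fell and none rose. The median log2 fold change of complex I was -0.95. Complexes II and III had 8 of 12 tested genes lower and a median of -1.42, and complex IV, cytochrome oxidase, 9 of 12 and a median of -1.11. Of 15 tested ATP synthase genes 9 fell, 1 rose, and the median was -0.93. With all libraries the counts of lower genes were 30, 12, 10 and 11 in the same order, against 7.11% of all tested genes.

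COX6A1, a complex IV subunit, was at 1190, 1008 and 1227 FPKM at 3 weeks and at 332, 398 and 583 FPKM at 6 weeks (log2 change -1.42 ± 0.2 SE, adjusted p = 0.000775). UQCRC2, a core protein of complex III, was at 520.1, 375 and 512 FPKM and then at 115, 142 and 209 FPKM (log2 fold change -1.62). ATP5B, the catalytic subunit of ATP synthase, was at 1786, 1288 and 1986 FPKM and then at 443, 512 and 641 FPKM (log2 fold change -1.66, adjusted p = 0.00037). In each of these genes the 6-week libraries stood clear below the 3-week libraries. SDHA, which links the citric acid cycle to the chain, fell by 1.55 on the log2 scale. The exception was ATP5G3, a gene for the proton-carrying ring of ATP synthase, at 92.1, 109.7 and 102 FPKM at 3 weeks and at 158, 158 and 210.4 FPKM at 6 weeks, a log2 rise of 0.78 (adjusted p = 0.00396).

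Some members of the chain changed with all libraries and missed the threshold without 3 weeks replicate 3. CYCS, cytochrome c, was at 694, 457 and 669 FPKM at 3 weeks and at 52.8, 162 and 289 FPKM at 6 weeks, with a log2 fold change of -2.13 (adjusted p = 0.0238) and -2.05 without that library (adjusted p = 0.0831). The size hardly moved, and the ages did not overlap. NDUFA4 and UQCRB had adjusted p of 0.0724 and 0.0541 without it. NDUFS4 fell by 0.7 on the log2 scale with adjusted p of 0.0125, but had an adjusted p of 0.0606 without 3 weeks replicate 1.

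Fuel oxidation upstream of the chain fell broadly too. In the citric acid cycle 12 of 18 tested genes fell and none rose, against 4.11% and 1.56% of all tested genes. The median log2 fold change was -1.42. CS, citrate synthase, was at 1019, 776 and 1163 FPKM at 3 weeks and at 323, 336 and 393 FPKM at 6 weeks (log2 fold change -1.47, adjusted p = 0.000537). SUCLA2, the ATP-forming succinyl-CoA ligase subunit, was at 703, 383 and 718 FPKM and then at 96.4, 93.1 and 152 FPKM (log2 fold change -2.37, adjusted p = 0.00034). Neither gene overlapped between ages. IDH3A, a subunit of isocitrate dehydrogenase, fell by 1.86 on the log2 scale.

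In fatty acid oxidation, 16 of 23 tested genes fell and none rose, against 4.11% and 1.56% of all tested genes, and the median was -1.44. ACADL, the long-chain acyl-CoA dehydrogenase, was at 3660 FPKM in 3 weeks replicate 1, at 2050 and 3950 FPKM in replicates 2 and 3, and at 582, 717 and 1134 FPKM at 6 weeks. Its log2 fold change was -1.99 ± 0.29 (SE), with an adjusted p of 0.0011. HADHA and HADHB encode the subunits of the mitochondrial trifunctional protein, which carries out the last steps of the spiral. HADHB was at 768, 536 and 1029 FPKM at 3 weeks and at 86.6, 74.7 and 101 FPKM at 6 weeks, a log2 change of -3.1 ± 0.21 (SE) with an adjusted p of 1.08e-05, and HADHA changed by -2.18. Both subunits were lower in every 6-week library than in any 3-week library. ACSL1, which activates fatty acids for oxidation as well as for storage, did not follow: it was at 735, 454 and 578 FPKM and then at 918, 753 and 902 FPKM (log2 fold change 0.56, adjusted p = 0.203).

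Fewer genes for the form and upkeep of mitochondria passed. Of 17 tested genes of fission, fusion and biogenesis, 8 fell and none rose, against 4.11% and 1.56% of all tested genes. The median log2 fold change was -0.76. IMMT, which shapes the cristae, fell by 1.12 on the log2 scale, MFN1, an outer membrane fusion protein, by 1.36, and TFB2M, a mitochondrial transcription factor, by 1.18. FIS1 and MFF, both receptors of the fission machinery, had log2 fold changes of -0.05 each. Of 16 tested genes of mitophagy and autophagy only PINK1, the kinase that marks damaged mitochondria, fell, from 110.2, 86.6 and 134 FPKM to 66.9, 44.1 and 39.2 FPKM, and the list's median was 0.01. BNIP3L, a mitophagy receptor, had a log2 fold change of -0.01.

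Breakdown of branched-chain amino acids, another mitochondrial fuel route, had 7 of 21 tested genes lower and 1 higher. The shares of all tested genes were 4.11% and 1.56%, and the list's median was -0.63. BCKDHA, a subunit of the committed dehydrogenase, was at 102, 85.5 and 112 FPKM at 3 weeks and at 41.1, 34.1 and 34.1 FPKM at 6 weeks (log2 fold change -1.43, adjusted p = 6.74e-05). SLC25A44, the mitochondrial carrier of these amino acids, fell by 0.73 on the log2 scale. BCAT2, the transaminase of the first step, was the gene that rose.

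**Figure D3:**
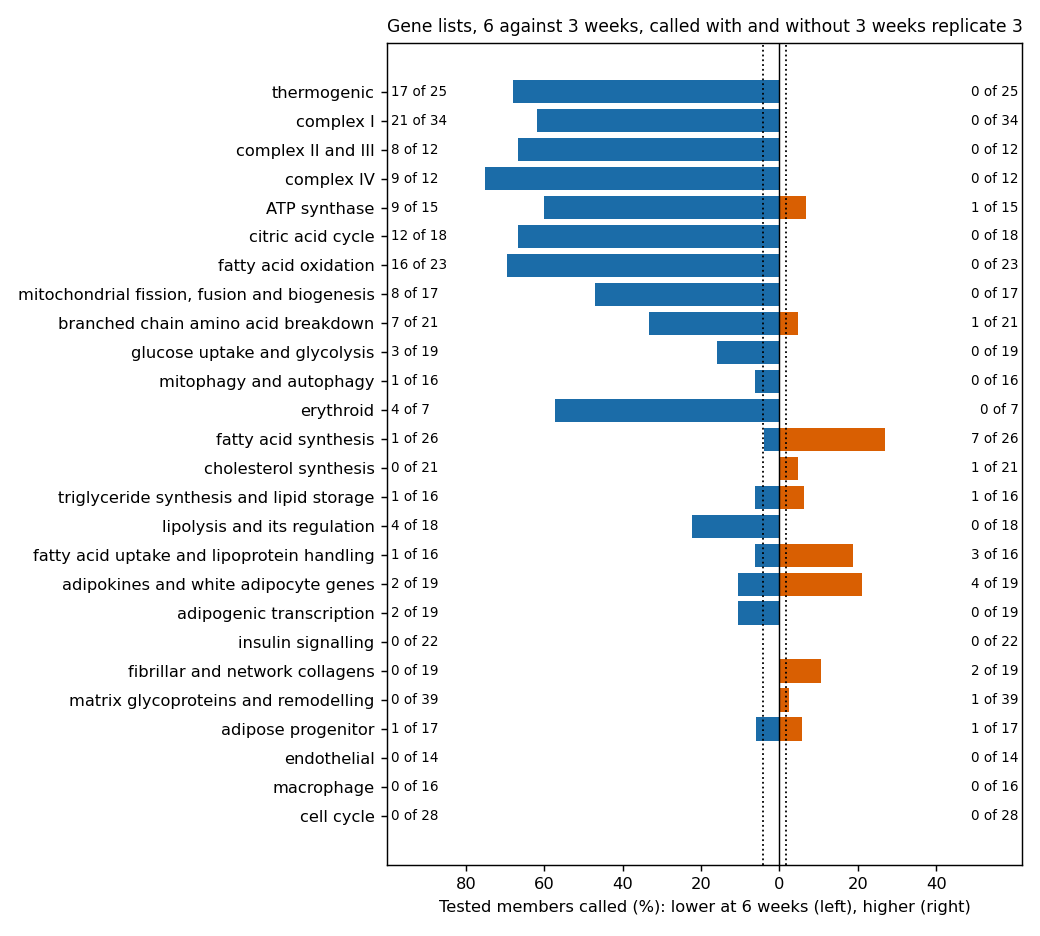
Percent of the tested members of each gene list that were called with and without 3 weeks replicate 3, lower at 6 weeks to the left and higher to the right, with the counts at the margins; dotted lines mark 4.11% and 1.56%, the shares of all tested genes. The lists of thermogenesis, respiratory complexes, citric acid cycle and fatty acid oxidation reach 60% or more lower, and fatty acid synthesis has 7 of 26 higher.

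Summed levels of 4 lists are given over all ages as context. Thermogenic genes summed to 9483 ± 369 FPKM on day 1 (mean ± SD, n = 3), 3485 ± 567 at 3 weeks, 1652 ± 73.2 at 6 weeks and 1988 ± 156 at 12 weeks. Complex I genes summed to 12919 ± 93.5 FPKM on day 1, 6716 ± 987 at 3 weeks, 3411 ± 736 at 6 weeks and 4058 ± 193 at 12 weeks. Fatty acid oxidation genes summed to 20492 ± 1506, 9804 ± 2430, 3548 ± 633 and 4131 ± 354 FPKM. In these 3 lists the mean at 6 weeks lay below the mean at 12 weeks, by less than the SD of the 6-week libraries in complex I and fatty acid oxidation and by more than it in the thermogenic list. Fatty acid synthesis took another course, with 2184 ± 127, 2514 ± 380, 4409 ± 1306 and 7300 ± 1355 FPKM. Genes with high levels weigh most in such sums, which are descriptions and were not tested. CIDEA, whose levels are given above and which neither rose nor fell, made up most of the thermogenic sum in each 6-week library. Those sums were 1591, 1632 and 1733 FPKM. Its share was smaller at 3 weeks, so the sum of the rest of the list dropped by more, in proportion, than the whole sum. The part of CIDEA in the thermogenic difference between 6 and 12 weeks was not separated.

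**Figure D4:**
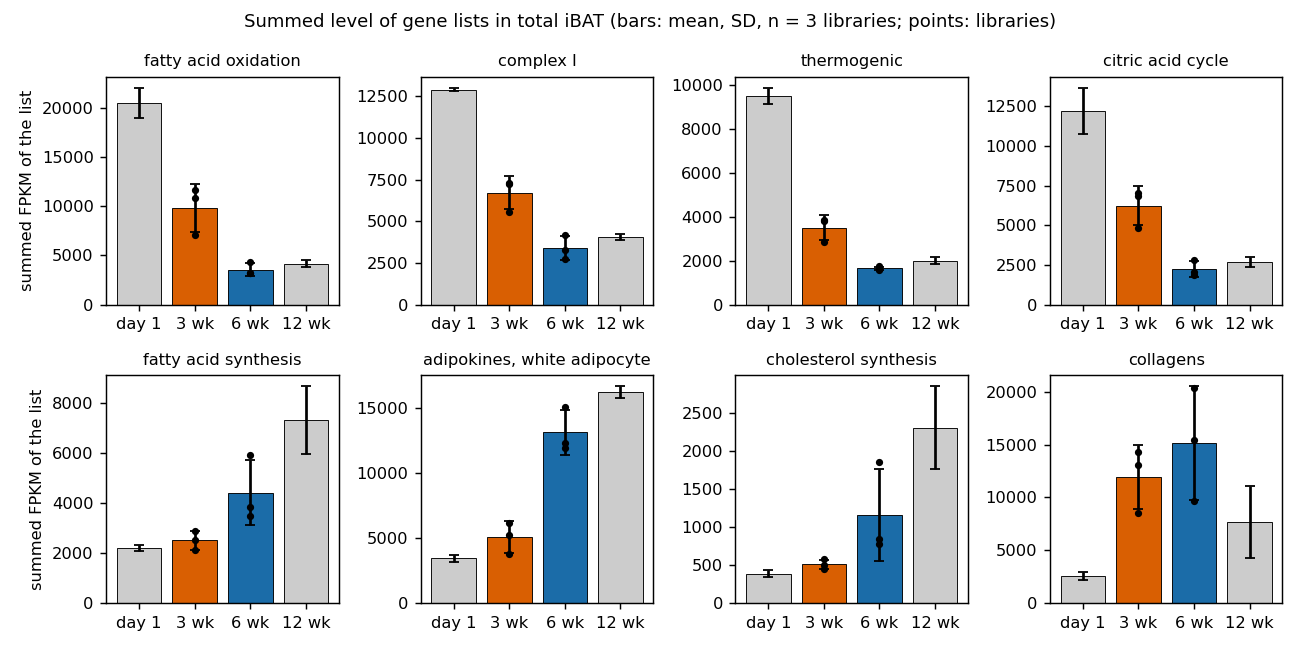
Summed FPKM of 8 gene lists in total iBAT at each age (bars, mean; error bars, SD; n = 3 libraries; points, the libraries of 3 and 6 weeks). Complex I falls from 6716 to 3411 FPKM between 3 and 6 weeks, while the sum of adipokine and white adipocyte genes goes from 5042 to 13086 FPKM.

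Fatty acid synthesis builds fat from acetyl-CoA in the cytosol. Of 26 tested genes 7 rose and 1 fell, against 1.56% and 4.11% of all tested genes. The median log2 fold change was 0.54. FASN, SCD and TALDO1 had no entry under these symbols, so they were not tested. ACSS2 (gene 100346003), which makes acetyl-CoA from acetate, was at 179, 91.2 and 102 FPKM at 3 weeks and at 540.4, 596 and 1015 FPKM at 6 weeks, a log2 change of 2.53 ± 0.3 (SE) with an adjusted p of 0.000275. ACACA, acetyl-CoA carboxylase, which commits carbon to fatty acids, was at 20.2, 9.27 and 13.8 FPKM and then at 37.7, 44.2 and 74.1 FPKM (log2 fold change 1.78, adjusted p = 0.0038). No 6-week library overlapped the 3-week libraries in either gene, and 6 weeks replicate 3 was the highest in both. ME1, which supplies NADPH, and SLC25A1, which exports citrate from mitochondria, also rose, SLC25A1 by 1.52 on the log2 scale. MID1IP1, an activator of acetyl-CoA carboxylase, rose by 1.89 and FADS3, a fatty acid desaturase family member, by 1.4. THRSP, a lipogenic protein of fat and liver, was at 782, 479 and 667 FPKM and then at 828, 982 and 1349 FPKM (log2 fold change 0.71, adjusted p = 0.0774), and ACLY, which makes acetyl-CoA from citrate, had a log2 fold change of 0.52 (adjusted p = 0.423). ME3, a mitochondrial malic enzyme, was the gene that fell.

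Cholesterol synthesis had 8 of 21 tested genes higher with all libraries and 1 in both fits, with a median log2 fold change of 0.67. Over all tested genes these shares were 4.29% and 1.56%. LSS, lanosterol synthase, was at 14.9, 12.9 and 13.6 FPKM at 3 weeks and at 48.1, 31.3 and 115 FPKM at 6 weeks (log2 fold change 1.94, adjusted p = 0.00298). MSMO1, a sterol oxidase, was at 53.6, 34.8 and 41.5 FPKM and then at 96.1, 96.2 and 267 FPKM, with adjusted p of 0.0199 and, without 3 weeks replicate 3, 0.0667. The highest value of both was in 6 weeks replicate 3. In 19 of the 21 genes that library was the highest of its age, against 39.1% of all tested genes.

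Genes of triglyceride storage had a median near 0. AGPAT2, AGPAT3, PLIN1, PLIN3, PLIN4, PLIN5 and PNPLA3 had no entry under these symbols, so they were not tested. DGAT2, which completes triglyceride, was at 1763, 1169.9 and 1328 FPKM at 3 weeks and at 1286, 1173 and 1398 FPKM at 6 weeks (log2 fold change -0.13, adjusted p = 0.732). GPD1, the cytosolic enzyme that makes the glycerol backbone from a glycolytic intermediate, rose from 539, 391 and 341 FPKM to 916, 1248 and 1530.2 FPKM (log2 fold change 1.53, adjusted p = 0.00111). PCK1, which makes that backbone from non-sugar precursors, fell from 746, 618 and 828 FPKM to 291, 191 and 149 FPKM (log2 fold change -1.84, adjusted p = 0.00411). The cytosolic GPD1 and the mitochondrial GPD2, the partners of the glycerophosphate shuttle, thus changed in opposite directions. Of 16 tested genes of the list GPD1 and PCK1 were the calls, against 5.67% of all tested genes.

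Of 18 tested genes of lipolysis 4 fell: ADRB3, ADRB1, PDE3B and G0S2. None rose, and over all tested genes 4.11% fell and 1.56% rose. PNPLA2 and GPR81 had no entry under these symbols, so they were not tested. PDE3B, the phosphodiesterase through which insulin lowers cyclic AMP, was at 71.2, 60.0 and 74.9 FPKM at 3 weeks and at 17.6, 25.0 and 31.9 FPKM at 6 weeks (log2 fold change -1.46, adjusted p = 0.00112). G0S2, an inhibitor of triglyceride lipase, was at 324, 268 and 282 FPKM and then at 106, 60.3 and 69.1 FPKM (log2 fold change -1.92, adjusted p = 0.00264). Activators and inhibitors of lipolysis were thus both among the falls. LIPE, hormone-sensitive lipase, was at 160, 147 and 149 FPKM and then at 258, 250.3 and 188 FPKM, with a log2 fold change of 0.6 and adjusted p of 0.0208 with all libraries and 0.0768 without 3 weeks replicate 3.

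Among intracellular carriers of fatty acids, FABP3 and FABP7 changed places in rank. FABP7 (gene 100358103), the brain-type fatty acid binding protein, was the gene with the largest rise: it was at 46.1, 9.4 and 11.1 FPKM at 3 weeks and at 368, 478 and 1168 FPKM at 6 weeks, a log2 change of 5.03 ± 0.56 (SE) with an adjusted p of 0.000179. FABP3, described above, fell. FABP4, the adipocyte form and the most abundant transcript in the table, was at 22055, 18525 and 19335 FPKM and then at 16604, 21612 and 25363 FPKM, with a log2 fold change of 0.07 (adjusted p = 0.923). LPL, which frees fatty acids from lipoproteins, had a log2 fold change of 1.0, with adjusted p of 0.0287 and, without 3 weeks replicate 3, 0.125. SCARB1, a lipoprotein receptor, rose by 1.13 on the log2 scale, and APOC1, an apolipoprotein at under 2 FPKM in these libraries, by 1.08. In all, 3 of 16 tested genes rose and 1 fell, against 1.56% and 4.11% of all tested genes.

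Of 19 tested genes of glucose uptake and glycolysis, HK1, PFKM and PKM fell and none rose, against 4.11% and 1.56% of all tested genes. The median log2 fold change was -0.4, and 15 of the 19 values were below 0. HK1, a hexokinase bound to mitochondria, was at 39.1, 32.8 and 42.2 FPKM at 3 weeks and at 17.9, 16.4 and 12.8 FPKM at 6 weeks (log2 fold change -1.23, adjusted p = 0.000634). PFKM and PKM were highest in the library with muscle transcripts, at 82.2 and 153 FPKM, and without it their log2 fold changes were -0.92 and -1.15, against -1.43 and -1.56 with it. PFKM had an adjusted p of 0.0565 without 6 weeks replicate 2. None of 22 tested genes of insulin signalling passed in both fits. With all libraries 3 passed, against 11.4% of all tested genes.

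Of 19 tested adipokine and white adipocyte genes, 4 rose and 2 fell, against 1.56% and 4.11% of all tested genes. The list's median log2 fold change was 0.7, and its summed level, to which ADIPOQ and SNCG gave a large part, was 5239, 6166 and 3721 FPKM at 3 weeks and 11910 FPKM, 12294 and 15054 FPKM at 6 weeks. SNCG (gene 100347926), gamma-synuclein, a protein abundant in neurons and in white adipocytes, was at 359, 609 and 216 FPKM at 3 weeks and at 2049, 2329 and 2377 FPKM at 6 weeks, a log2 change of 2.63 ± 0.33 (SE) with an adjusted p of 0.000442. ADIPOQ, adiponectin, was at 912, 2066 and 831 FPKM and then at 4264, 4102 and 5199.7 FPKM (log2 change 1.95 ± 0.31 SE, adjusted p = 0.00176). Both had their highest 3-week value in replicate 2, and every 6-week library was higher still. LEP, leptin, was at 67.3, 80.6 and 49.6 FPKM and then at 154, 132 and 169 FPKM, with a log2 fold change of 1.21 and an adjusted p of 0.014 with all libraries and 0.0682 without 3 weeks replicate 3. Its ages did not overlap, and its mean was 0.963 FPKM on day 1 and 269.6 FPKM at 12 weeks.

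HOXC8, a positional gene expressed more in white than in brown fat, was low, at 1.03, 0.24 and 0.56 FPKM at 3 weeks and at 2.49, 4.0 and 1.75 FPKM at 6 weeks (log2 fold change 1.2, adjusted p = 0.0109, and 0.0505 without 6 weeks replicate 2). ADM, adrenomedullin, rose by 0.62 on the log2 scale, with an adjusted p of 0.0549 without 3 weeks replicate 1. VEGFA, the main vascular growth factor, fell from 108, 137 and 139 FPKM to 83.2, 69.8 and 73.5 FPKM (log2 fold change -0.75). The secreted factors thus moved both ways. Core adipogenic regulators did not pass: PPARG had a log2 fold change of -0.03 and CEBPA of -0.27. Of 19 tested factors RXRG and EBF2 fell, against 4.11% of all tested genes. RXRG, a nuclear receptor partner of PPARG, was at 96.5, 49.1 and 97.2 FPKM and then at 9.98, 9.89 and 18.9 FPKM (log2 fold change -2.55, adjusted p = 0.000885).

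The other genes with the largest rises share no list. PRUNE2 (gene 100339950) was at 2.17, 1.48 and 2.37 FPKM at 3 weeks and at 14.9, 21.0 and 45.6 FPKM at 6 weeks, a log2 change of 3.09 ± 0.32 (SE) with an adjusted p of 0.000114. DEFB1 (gene 103352242), an antimicrobial peptide of epithelia, was at 6.67, 5.6 and 1.6 FPKM and then at 35.5, 23.9 and 67.0 FPKM (log2 fold change 2.96). GABRD (gene 100348213), a subunit of the receptor for the transmitter GABA, was at 21.9, 33.7 and 14.1 FPKM and then at 218, 91.5 and 238 FPKM (log2 fold change 2.88, adjusted p = 0.000567). In PRUNE2 and DEFB1 the highest 6-week value was in replicate 3. MCOLN3 (gene 100340415), an endolysosomal cation channel, rose by 2.57 on the log2 scale, ASS1 (gene 103346396), argininosuccinate synthase of arginine synthesis, by 2.51, and ALDH1L1 (gene 100356705), an enzyme of folate metabolism, by 2.53. ALDH1L1 was at 44.5 FPKM in 6 weeks replicate 3 and at 8.01 and 8.9 FPKM in the other 6-week libraries. The gene listed as C8H12orf40 (gene 100344150) rose by 2.67.

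Matrix genes differed in level among the libraries of an age. COL3A1, a fibrillar collagen, was at 4734, 4897 and 2810.2 FPKM at 3 weeks and at 7317, 5411 and 3444 FPKM at 6 weeks (log2 fold change 0.36, adjusted p = 0.59). COL1A1 had a log2 fold change of 0.14. Of 19 tested collagens COL5A2 and COL5A3 rose, against 1.56% of all tested genes, COL5A3 from 31.3, 37.1 and 22.5 FPKM to 74.3, 88.2 and 63.9 FPKM (log2 fold change 1.3, adjusted p = 0.00293). The median was 0.59, and 0.43 without 3 weeks replicate 3. Of 39 tested matrix glycoproteins and remodelling genes only CTHRC1, a collagen triple helix repeat protein, rose, from 11.3, 21.5 and 5.17 FPKM to 59.9, 44.9 and 55.3 FPKM (log2 fold change 2.18, adjusted p = 0.00292). Replicate 3 of both ages was the lowest of its age in most of these 39 genes, in 35 at 3 weeks and in 33 at 6 weeks, against 43.0% and 36.6% of all tested genes.

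Markers of other cells are given beside the 5.67% of all tested genes that were called in both fits. Of 17 tested adipose progenitor genes SEMA3C rose and F3 fell, while DLK1, the preadipocyte factor, was at 42.7, 67.5 and 17.1 FPKM at 3 weeks and at 144, 118 and 15.1 FPKM at 6 weeks (adjusted p = 0.659). None of the tested endothelial (14), pericyte and smooth muscle (13), macrophage (16) and cell cycle (28) genes passed in both fits. With all libraries the calls were 2, 1, 1 and 0 in the same order, against 11.4% of all tested genes. Single libraries stood out in these lists. 3 weeks replicate 2 was the highest of its age in all 16 macrophage and 13 of 14 endothelial genes, against 51.9% of all tested genes. 6 weeks replicate 3 was the highest of its age in all 28 cell cycle genes, against 39.1%. MKI67, a proliferation marker, was at or under 2.32 FPKM in 5 libraries and at 8.4 FPKM in 6 weeks replicate 3. Of 17 tested interferon-response genes 6 were higher with all libraries and none in both fits, against 4.29% and 1.56% of all tested genes. IFIT2 fell from 24.9, 18.7 and 23.6 FPKM to 4.97, 8.9 and 8.68 FPKM. The interferon list's median was 0.93, and 0.89 without 3 weeks replicate 3.

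Several genes listed as erythroid fell, and the part of blood left in the samples was not tested. The erythroid list had 4 of 7 tested genes lower, against 4.11% of all tested genes, with a median log2 fold change of -1.61. HBB2, a beta-type globin, was at 789.5, 735 and 895 FPKM at 3 weeks and at 272, 206 and 176 FPKM at 6 weeks (log2 fold change -1.9, adjusted p = 0.0121, and 0.0493 without 3 weeks replicate 3). ALAS2, the heme synthesis enzyme of red cells, was at 35.0, 21.95 and 25.3 FPKM and then at 6.55, 5.09 and 5.25 FPKM (log2 fold change -2.08), and TFRC, the transferrin receptor, changed by -2.48. Each of the 3 genes was lower in all 6-week libraries. Globin shares its family with close copies, between which the counting could split reads.

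In the WNT pathway 2 of 29 tested genes rose, RSPO3 and ROR2, and 2 fell, the receptors FZD8 and FZD5, against 5.67% of all tested genes called in either direction. FZD8 was at 13.6, 12.1 and 14.1 FPKM at 3 weeks and at 3.28, 1.94 and 2.81 FPKM at 6 weeks (log2 fold change -1.97, adjusted p = 0.000141), and RSPO3, a secreted enhancer of WNT signals, rose by 1.68 on the log2 scale. None of 32 tested genes of the TGF-beta and BMP pathway passed in both fits. With all libraries 2 did, against 11.4% of all tested genes. ALDH1A1, which makes retinoic acid and is abundant in white fat, was the call among 16 retinoid genes: it was at 81.5, 80.2 and 68.2 FPKM at 3 weeks and at 281, 373 and 484 FPKM at 6 weeks (log2 change 2.26 ± 0.29 SE, adjusted p = 0.000516). The ages were well apart in that gene.

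Smaller lists added single genes. EGLN3, an oxygen-sensing prolyl hydroxylase, fell by 1.68 on the log2 scale, and CDKN1A, an inhibitor of the cell cycle, rose by 1.39. PER1 and PER2, repressors of the circadian clock, fell by 1.29 and 1.17; the time of day of sampling is not in the labels. PEG3, an imprinted gene, was at 227, 139 and 200.3 FPKM at 3 weeks and at 52.9, 70.4 and 51.9 FPKM at 6 weeks (log2 fold change -1.66, adjusted p = 0.00266), while PEG10, another, rose by 2.12. DSP, desmoplakin of cell junctions, rose from 24.1, 28.1 and 23.5 FPKM to 75.7, 66.2 and 99.1 FPKM.

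Of the 1409 genes called with all libraries, 708 were not called without 3 weeks replicate 3, and 17 were called only without it. The largest changes among the lost calls, beside CYCS, were those of GNAT3, CYP2A11, GPX3, AQP8 and CISH. GNAT3, a taste-cell G protein, was at 11.8, 16.8 and 48.3 FPKM at 3 weeks and at 5.68, 0.27 and 0.41 FPKM at 6 weeks, with adjusted p of 0.0139 and 0.0659. GPX3, a secreted glutathione peroxidase, was at 925, 1249 and 1549 FPKM and then at 555, 364 and 67.7 FPKM, with adjusted p of 0.0205 and 0.0817. In these genes the libraries of an age were far apart. AQP8, a water channel, was higher at 6 weeks, with a log2 fold change of 2.22 and 1.85 without that library (adjusted p = 0.0263 and 0.113), and CYP2A11, a cytochrome P450, had log2 fold changes of 2.74 and 2.43 (adjusted p = 0.012 and 0.0572). CISH, a feedback inhibitor of cytokine signals, had log2 fold changes of -2.17 and -1.87 (adjusted p = 0.0212 and 0.0924).

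The 6-week libraries were not alike. Replicate 1 held the residual UCP1, the muscle trace and the highest collagen sum, 20357 FPKM against 15458 FPKM and 9637 FPKM in replicates 2 and 3. Replicate 3 held the highest sums of fatty acid synthesis, 5901 FPKM against 3474 FPKM and 3850.0 FPKM, and of complex I, 4206 FPKM against 2754 FPKM and 3274 FPKM. It was the highest of its age in 32 of 34 complex I genes and all 12 of complexes II and III, against 39.1% of all tested genes. At 3 weeks replicate 2 was the lowest of its age in 32 of those 34 genes and in all 12, against 24.6% of all tested genes. On the main axis of variation among the 6 libraries, which took 51.6% of the variance, the 3-week libraries lay between -49.9 and -14.3 and the 6-week libraries between 26.3 and 33.8; the second axis, with 19.5%, ran from -27.4 in 6 weeks replicate 1 to 35.5 in 6 weeks replicate 3.

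The SVF of the same depot, which holds the cells left after mature adipocytes float off, was measured in other libraries at the same ages. Its table was scaled separately, so values are set side by side and no difference between the fractions was tested. In the SVF 201 of 11632 genes were called (1.73%), 91 higher (0.782%) and 110 lower (0.946%). That count was between 54 and 114 when any 1 of the 6 SVF libraries was left out, and the split was 321 higher and 234 lower after median ratio scaling and 524 and 159 after upper quartile scaling. Of the genes that rose in whole tissue 160 were tested in the SVF and 8 were called higher there, which is 5.0% of them and 9.64% of the SVF calls tested in whole tissue; 1 was called lower. Of those that fell 416 were tested and 29 were called lower, which is 6.97% and 28.7%; 4 were called higher. The thermogenic list had a median log2 fold change of -0.07 in the SVF and 3 of 17 tested genes lower, and complex I a median of -0.43 with 7 of 34 lower.

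Single genes of lipid storage and secretion are given side by side; the storage list as a whole had a median of -0.01 in whole tissue and -0.12 in the SVF. CIDEA, DGAT2 and CIDEC had log2 fold changes of -3.2, -1.9 and -2.2 in the SVF (adjusted p = 0.000233, 0.00218 and 0.00352) and of -0.21, -0.13 and -0.05 in whole tissue. SNCG and LEP were lower in the SVF, by log2 fold changes of -1.67 and -1.35 (adjusted p = 0.0316 and 0.0364), against 2.63 and 1.21 in whole tissue. How far adipocytes left in the SVF libraries entered these values was not tested. ADIPOQ had a log2 fold change of 0.01 in the SVF. PCK1 and G0S2 were lower in both fractions, by -3.2 and -1.87 in the SVF (adjusted p = 0.00324 and 0.00435). ALOX15 was lower in both, by -4.51 in the SVF (adjusted p = 0.00095), and COL5A3 higher in both, by 2.63 in the SVF (adjusted p = 3.59e-05). The skeletal muscle list had a median of -2.19 in the SVF with no gene called.

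**Figure D5:**
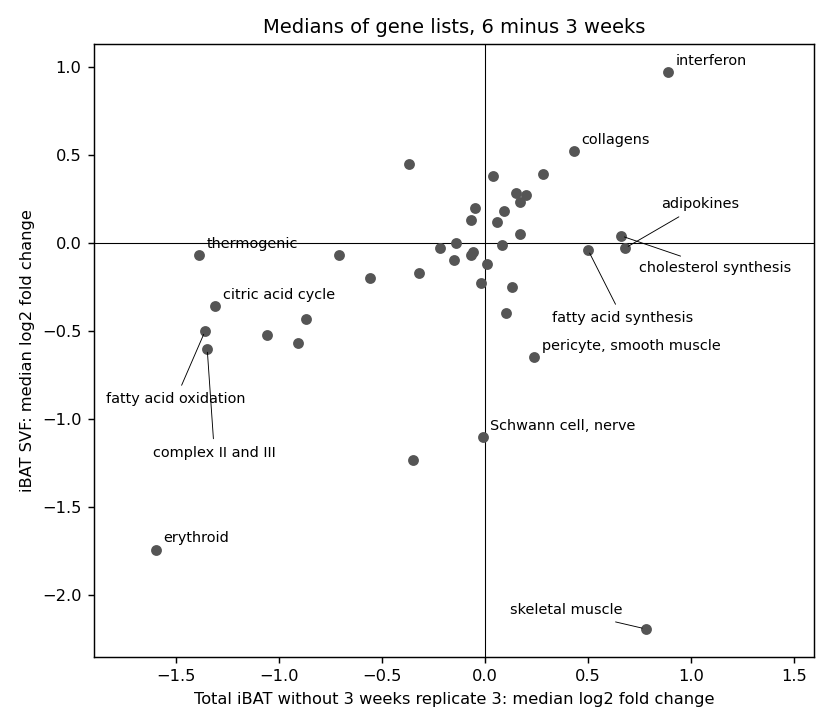
Median log2 fold change (6 minus 3 weeks) of each gene list with at least 5 tested genes, in total iBAT without 3 weeks replicate 3 (x axis) and in the iBAT SVF (y axis), which were fitted and scaled separately. The medians of erythroid genes are -1.6 and -1.74, and those of thermogenic genes -1.39 and -0.07.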

How the data were processed

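The authors deposited FPKM values per gene, a length- and library-normalised unit, for 12 total iBAT and 24 SVF libraries in separate tables. Per the submitters' processing notes, HISAT2 2.0.4, Bowtie2 2.2.5, DESeq2 and the OryCun2.0 build were used; which step gave the FPKM is not given in the sources used here, and neither are read depths. Symbols came from the SVF table by gene ID, or from the RefSeq gene table of assembly mOryCun1.1 where missing (86.2% of IDs matched); coordinates and sequences were not used here.

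Genes with at least 1 FPKM in 3 of the 6 libraries were tested on log2(FPKM + 1) with limma 3.58.1 (R 4.3.3), moderated with a variance trend, two-sided and Benjamini-Hochberg adjusted over all genes tested at 0.05. All 12 total iBAT libraries entered, with 1 mean per age, and the fit was repeated without 3 weeks replicate 3. The SVF fit took all 24 SVF libraries. The script was tested on simulated data.

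Members, the 48 gene lists and tests were chosen with earlier results of these data known. Named genes are the 10 largest rises and 10 largest falls called in both fits with a mean of at least 10 FPKM in 1 age and no overlap, then up to 6 called and 3 uncalled genes per list by level, 11 fixed genes, and the 6 largest lost calls; genes outside this rule (ACLY, ATP5G3, BCAT2, ELOVL3, ME1, ME3, PRDM16) were chosen after their values were seen. Alternatives were scaling, pseudocount, filter, trend, library weights, libraries fitted and replicates left out. No single-cell sample was analysed here.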

Additional observations from a re-analysis of the deposited data

How the results depend on the processing

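The count of 1409 genes in total iBAT ranged from 718 to 1491 when 1 library was left out, was 917 with only the 6 libraries fitted and 616 with a log2 change of at least 1. Without 3 weeks replicate 3 (718 genes) it ranged from 205 to 762, with 376 and 456 in those settings. The SVF count of 201 ranged from 54 to 114, and was 122 with a pseudocount of 0.1, 129 with no filter, 555 after median ratio and 683 after upper quartile scaling, 371 with only the 6 libraries fitted and 133 with a log2 change of at least 1. Library weights gave 5814, 2453 and 3758 genes. In total iBAT 6 weeks replicate 2 took a weight of 22.3, and of 20.7 without 3 weeks replicate 3. In the SVF fit the largest weight was 5.8, that of iBAT SVF 6 weeks replicate 1. The estimation of weights stopped before it converged, so those counts are no guide. Median ratio scaling gave 622 higher and 765 lower genes, against 530 and 879 as deposited. Of 123 named genes called in both fits, 119 kept their call and direction whichever of the 6 libraries compared was left out (exceptions: ADM, HOXC8, NDUFS4 and PFKM) and 113 under every other setting that tested them. With the replicate number as a block the counts were 1113, 539 and 142. Deviations of same-numbered libraries from their age means had correlations of -0.217, 0.131 and 0.0658. Those of libraries with unlike numbers ran from -0.264 to 0.224. With 3 libraries per age these values cannot decide whether the numbers pair the libraries. Sequencing depth is unknown: steps between low FPKM values placed the 3-week libraries at 0.793 to 0.983 and the 6-week libraries at 1.37 to 1.54 of the mean depth with 1 range of values, and at 0.737 to 1.24 and 1.02 to 1.15 with another, so depth may differ between the ages and its part was not tested.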

Other observations

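A few genes outside the lists stood out, and all of them were chosen after their values were seen. GNAS, the stimulatory G protein subunit that links beta-adrenergic receptors to adenylyl cyclase, fell: it was at 2818, 2554 and 2189 FPKM at 3 weeks and at 816, 774 and 734 FPKM at 6 weeks (log2 change -1.69 ± 0.17 SE, adjusted p = 9.69e-05). DUOX2, a hydrogen peroxide-forming oxidase best known from the thyroid, and DUOXA2, the protein that brings it to the cell surface, fell together. DUOX2 was at 9.83, 6.98 and 16.8 FPKM and then at 0.28, 0.07 and 1.19 FPKM, and DUOXA2 at 16.0, 9.54 and 26.9 FPKM and then at 0.39, 0.05 and 1.03 FPKM. PCK2, the mitochondrial form of the PCK1 enzyme, rose from 79.6, 76.4 and 40.2 FPKM to 239, 263 and 312 FPKM, opposite to PCK1.

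The second most abundant gene at 3 weeks was listed as ADORA1, an adenosine receptor, at 17613, 11452 and 16249 FPKM, against 2007, 3496 and 5146 FPKM at 6 weeks. In the SVF it was at 19959, 5679 and 55051 FPKM at 3 weeks and at 1336, 1438 and 1234 FPKM at 6 weeks. A gene with no symbol, LOC100009266, was at 8093, 4592 and 8538 FPKM and then at 751, 1077 and 1726 FPKM in whole tissue, and at 14692, 3247 and 43456 FPKM and then 783, 907 and 794 FPKM in the SVF. What these reads come from was not tested.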
